A study of Mus musculus with 14 samples.

Results

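Genes of protein folding in the endoplasmic reticulum (ER) were followed in mouse liver: chaperones and their helpers, lectin chaperones, disulfide isomerases and oxidases, the sensors of unfolded protein, and the machinery of ER-associated degradation. They came from a list of 40 symbols. Of these, 35 matched the array annotation by symbol and 3 by an older name (Ero1l as Ero1a, Ero1lb as Ero1b and Vimp as Selenos), which gave 38 measured members among 22180 genes. Sdf2 and Pdia4 had only probe sets that name several genes, so no value is given for either. The list was drawn up with earlier results of these data known, so its counts are not those of a list chosen blind. The annotated probe set with the highest mean stood for each gene. A second, dimmer probe set existed for 5 members (Derl2, Edem1, Ero1a, Selenos and Ssr1).

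All mice were male C57Bl/6J that started a 60% high-fat diet (HFD) at 6 weeks of age and ate it for 4 weeks before the arms diverged for another 4 weeks. The canagliflozin arm (n = 5 arrays) stayed on the HFD and received canagliflozin, an inhibitor of the renal glucose transporter SGLT2, at 30 mg/kg in the sample labels and 25 to 30 mg/kg in the protocol. The caloric restriction arm (n = 5) ate 15 to 30% less so that its weight matched the drug arm. The HFD control arm (n = 4) simply continued the diet, so every group was HFD-fed and a chow-fed group is not analysed here. Total RNA from liver was hybridised to 1 Affymetrix array per sample. The labels do not state for each array that it is 1 mouse, so p-values measure the spread between these samples. Albumin (Alb) was the brightest hepatocyte marker, with a mean of 14.01 on the log2 scale, and the 5 measured hepatocyte markers averaged 12.45 to 12.51 in canagliflozin arrays, 12.50 to 12.55 in caloric restriction arrays and 12.47 to 12.58 in HFD control arrays. All 7 measured plasma and B cell markers had means under 5 in log2 value. The 7 macrophage markers averaged 6.81 to 7.31 in canagliflozin arrays, 6.26 to 7.18 in caloric restriction arrays and 6.42 to 7.36 in HFD control arrays. With canagliflozin 6 of the 7 had a higher mean than in HFD controls (median 0.13), and with caloric restriction 2 of the 7 (median -0.08). None passed the adjusted threshold, and their part in the results was not tested. Values come from whole liver, in which fewer cells of a type and less RNA per cell cannot be told apart.

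Secreted and membrane proteins fold in the ER, and hepatocytes, which secrete most plasma proteins, carry a large ER. When unfolded protein accumulates, the membrane sensors IRE1 (Ern1), ATF6 (Atf6) and PERK (Eif2ak3) are activated. IRE1 splices the mRNA of Xbp1 into the form that encodes an active transcription factor, ATF6 is cut to release another, and both raise chaperone and degradation genes through short promoter elements, while PERK slows translation. A whole-gene probe set does not separate spliced from unspliced Xbp1 mRNA, and arrays measure neither sensor activity nor protein.

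The promoter element best known for this response, the ER stress response element (ERSE), reads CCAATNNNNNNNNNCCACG, that is CCAAT and CCACG with 9 bases of any kind between them. Exact matches were searched on both strands from 250 bases before to 50 after each RefSeq gene start (assembly GRCm38.p6). Inexact or more distant copies were not looked for. The element was found in 10 of the 35 members with a promoter in the RefSeq table (28.6%), against 37 of all 27025 genes (0.137%). It is known from genes of this response, many of which the list holds, so these shares are not an independent result. The windows below are shown because each belongs to a member whose values are given array by array further on. Each is written 5′ to 3′ on the strand of the gene, with the element's fixed letters in capitals, which read CGTGG and ATTGG where the element lies in reverse. Herpud1 carries the related ERSE-II, ATTGGNCCACG, which overlaps no ERSE there.
Derl3 (chr10:75893232-75893270, plus strand, reverse): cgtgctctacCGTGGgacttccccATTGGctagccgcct
Creld2 (chr15:88819510-88819548, plus strand, reverse): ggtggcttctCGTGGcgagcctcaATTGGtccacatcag
Pdia6 (chr12:17266481-17266519, plus strand, forward): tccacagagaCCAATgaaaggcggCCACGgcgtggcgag
Calr (chr8:84847065-84847103, minus strand, reverse): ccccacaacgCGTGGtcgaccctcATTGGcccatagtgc
Hspa5 (chr2:34772015-34772053, plus strand, forward): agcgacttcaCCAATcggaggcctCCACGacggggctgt
Hsp90b1, distal (chr10:86705628-86705666, minus strand, forward): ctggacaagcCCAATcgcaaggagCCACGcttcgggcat
Hsp90b1, proximal (chr10:86705523-86705561, minus strand, reverse): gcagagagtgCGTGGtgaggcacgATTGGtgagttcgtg
Herpud1 (chr8:94386367-94386397, plus strand, forward): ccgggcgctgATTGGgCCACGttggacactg
The element lies at -65 to -47 from the start of Hspa5 and at -156 to -138 in Derl3. The other members with it were Canx, Dnajc3, Ero1b and Syvn1. ERSE-II occurred in Herpud1 and Dnajb11 among the members, and in 12 of all genes (0.0444%). Another element, TGACGTGG, occurred in Txndc5 and Txndc11, and in 193 of all genes (0.714%). A match is a description of letters and not evidence of a bound site.

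No member passed an adjusted p under 0.05 (limma, Benjamini-Hochberg over all 22180 genes) in any comparison, and no gene at all did so for canagliflozin against HFD control (0% of genes) or caloric restriction against HFD control (0%). Most means were nevertheless lower. With canagliflozin, 31 of 38 members had a lower mean than in HFD controls, beside 50.3% of all genes, and the median log2 fold change of the members was -0.17. With caloric restriction 32 of 38 were lower, beside 49.5% of all genes, and the median was -0.12. The median over all genes was -0.0008 for canagliflozin and 0.0016 for caloric restriction. All 38 members had a mean log2 value of at least 5, as did 9300 genes in all. Of these 9300 genes, 5046 had a lower mean with canagliflozin (median -0.014) and 5077 with caloric restriction (median -0.013). Both comparisons use the same 4 control arrays, so the counts are not independent of each other.

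**Figure D1:**
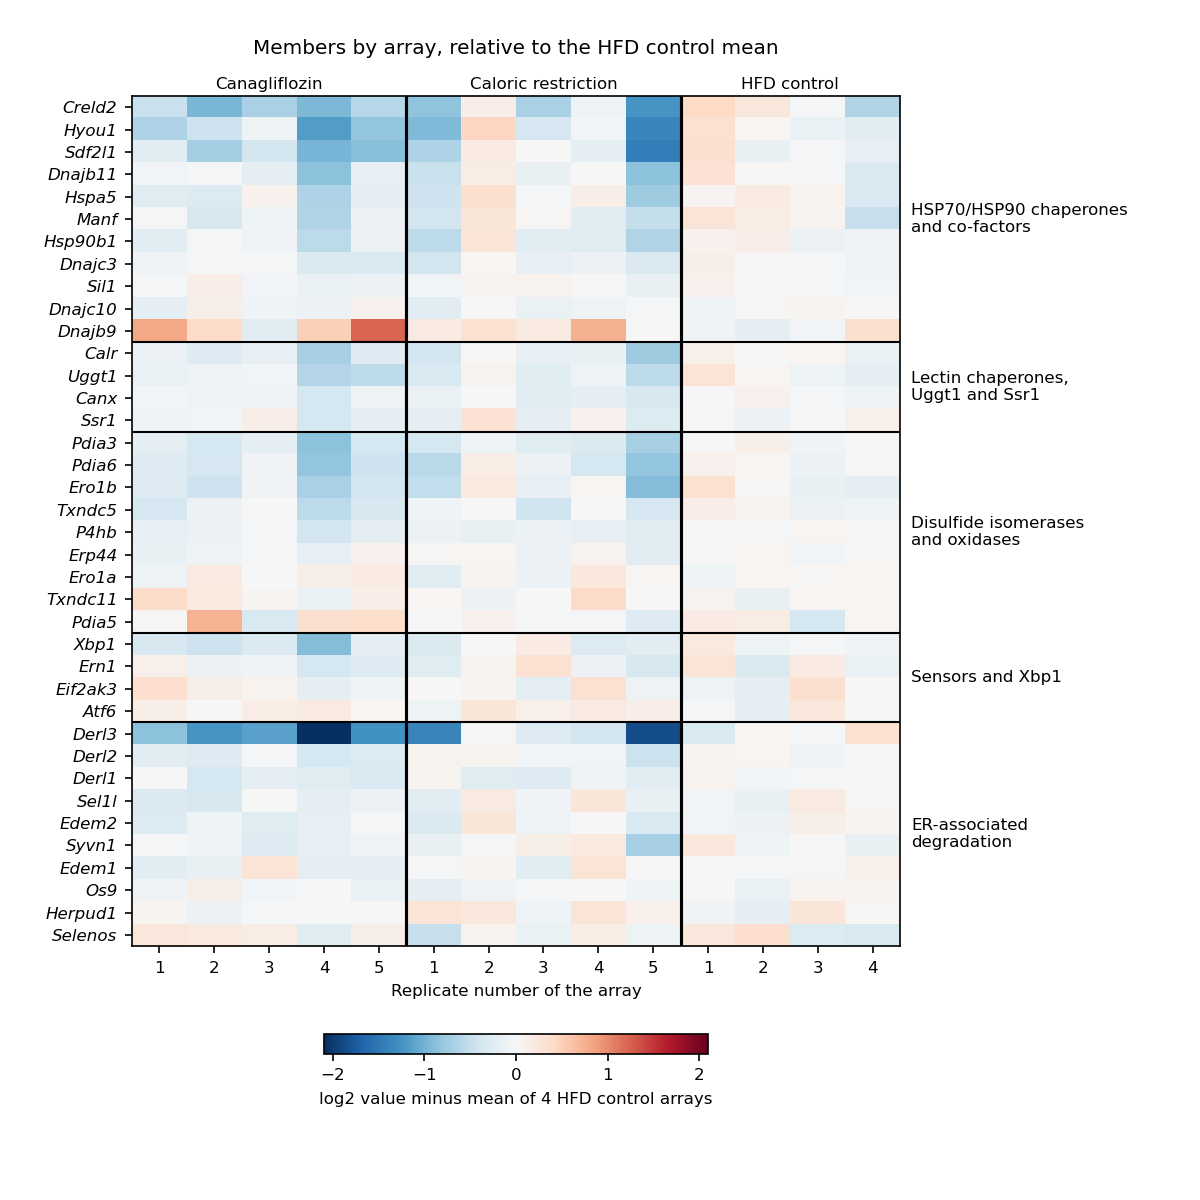
Heat map of 38 ER folding genes (rows, grouped by role) in 14 liver arrays (columns: canagliflozin, caloric restriction, HFD control). Colour is the log2 value minus the mean of the 4 HFD control arrays, blue for lower and red for higher. Most rows are blue in every treated array except caloric restriction replicate 2, where 7 are, and also in HFD control replicates 3 and 4. By median the shift is largest in canagliflozin replicate 4 and caloric restriction replicates 1 and 5. Derl3 is the darkest row and Dnajb9 the main red one.

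At an unadjusted p under 0.05, 12 members were lower and 1 was higher with canagliflozin, beside 3.3% of all genes lower and 3.21% higher. With caloric restriction 3 members were lower and 0 higher at that level, beside 1.87% and 2.06% of all genes. These counts leaned on the scaling, on the model and on single arrays. With each array centred on its median, 8 members were lower with canagliflozin and 3 with caloric restriction. With the replicate number as a block, 6 were lower with canagliflozin and 1 with caloric restriction. With canagliflozin the 12 lower members became 5 when its own replicate 4 or its replicate 5 was left out, and 4 or 6 when HFD control replicate 1 or 2 was. With caloric restriction the 3 became 0 when its own replicate 5 was left out, 11 when its replicate 2 was, and 2 when its replicate 1 was. Leaving out HFD control replicate 2 gave 1, and leaving out any other control gave 2. Dropping canagliflozin replicate 4, which alters only the shared spread, gave 5. The tally of lower means stayed between 30 and 32 for canagliflozin whichever array was left out. For caloric restriction it ranged between 23, with its replicate 5 left out, and 35, with its replicate 4 left out.

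**Figure D2:**
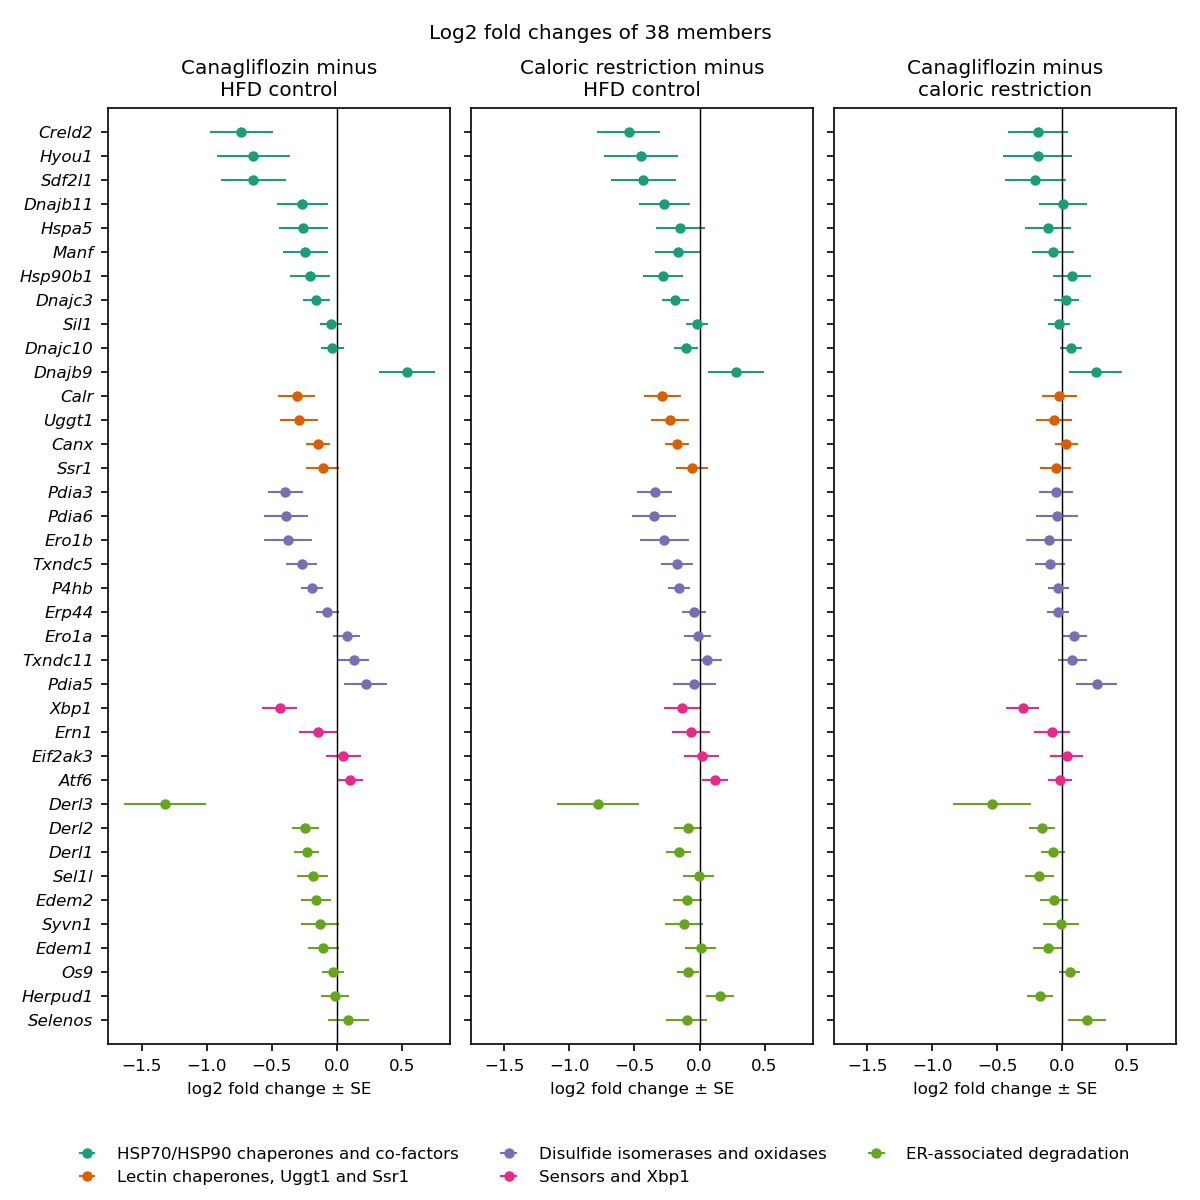
Log2 fold changes with standard errors of the 38 members, grouped and coloured by role, for canagliflozin minus HFD control, caloric restriction minus HFD control, and canagliflozin minus caloric restriction. Derl3 is lowest in all 3 panels, at -1.32, -0.78 and -0.54, and most points of the first pair of panels lie left of 0.

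Among the ER chaperones and their co-factors, 10 of 11 measured members had a lower mean with canagliflozin (median -0.24) and 10 of 11 with caloric restriction (median -0.19). Creld2, Hyou1 and Sdf2l1 stood lowest, whereas Dnajb9 was higher in mean with either treatment. Values below are log2 values in the order of the replicate numbers.

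Creld2, an ER protein with disulfide isomerase activity that is induced by ER stress, had 8.26, 7.78, 8.05, 7.78 and 8.13 with canagliflozin, 7.89, 8.88, 8.05, 8.63 and 7.49 with caloric restriction, and 9.15, 8.97, 8.70 and 8.10 in HFD controls. HFD control replicate 4 fell among the treated arrays, so the groups overlapped, while the other 3 controls lay above every canagliflozin array. The log2 fold change was -0.73 ± 0.24 (SE) for canagliflozin, a 1.66-fold lower level (adjusted p = 0.607), and -0.54 ± 0.24 for caloric restriction (adjusted p = 0.999). Neither shift passed the adjusted threshold, and only 25 of 22180 genes had a lower fold change than Creld2 with canagliflozin.

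Sdf2l1, a partner of the J-domain co-chaperones that assists BiP, had 7.23, 6.74, 7.07, 6.48 and 6.55 with canagliflozin, 6.80, 7.62, 7.44, 7.24 and 6.01 with caloric restriction, and 7.79, 7.30, 7.43 and 7.29 in HFD controls. Every canagliflozin array lay below every control, which held for 4 of 38 members (Derl3, Pdia3, Sdf2l1 and Xbp1) beside 0.965% of all genes. Caloric restriction overlapped the controls through replicates 2 and 3. The log2 fold change of Sdf2l1 was -0.64 ± 0.25 for canagliflozin (adjusted p = 0.708) and -0.43 ± 0.25 for caloric restriction (adjusted p = 0.999).

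Hspa5, which encodes BiP, the central HSP70 of the ER, had 8.23, 8.19, 8.57, 7.84 and 8.29 with canagliflozin, 8.05, 8.82, 8.44, 8.62 and 7.73 with caloric restriction, and 8.54, 8.66, 8.56 and 8.17 in HFD controls. The groups overlapped in both comparisons, and the highest array of all was caloric restriction replicate 2. The log2 fold change was -0.26 ± 0.19 with canagliflozin, with a 95% interval of -0.65 to 0.14 (adjusted p = 0.866), and -0.15 ± 0.19 with caloric restriction (adjusted p = 0.999). Without canagliflozin replicate 4 the first value was -0.16. The second was 0.00 without replicate 5 of its arm and -0.27 without replicate 2.

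Hsp90b1, the ER paralogue of HSP90 known as GRP94, had 11.17, 11.37, 11.34, 10.87 and 11.29 with canagliflozin, 10.86, 11.68, 11.20, 11.15 and 10.78 with caloric restriction, and 11.50, 11.55, 11.29 and 11.32 in HFD controls. Caloric restriction replicate 2 was above all controls and the other 4 of that arm below them all. The fold change was -0.21 ± 0.15 with canagliflozin (adjusted p = 0.869), or -0.12 without replicate 4 of that arm, and -0.28 ± 0.15 with caloric restriction (adjusted p = 0.999).

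Dnajb9, the J-domain protein ERdj4 that binds misfolded clients and restrains IRE1, had the highest fold change of the members. It had 8.36, 7.92, 7.32, 8.04 and 8.76 with canagliflozin, 7.71, 7.85, 7.72, 8.28 and 7.55 with caloric restriction, and 7.46, 7.35, 7.48 and 7.87 in HFD controls. With canagliflozin 4 of 5 arrays exceeded every control and replicate 3 was below them all. The log2 fold change was 0.54 ± 0.22 (1.45-fold higher, adjusted p = 0.711) for canagliflozin and 0.28 ± 0.22 (adjusted p = 0.999) for caloric restriction. In canagliflozin, only 101 of 22180 genes had a higher fold change.

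Of the remaining co-factors, Hyou1, the exchange factor of BiP known as GRP170, had a fold change of -0.64 ± 0.28 with canagliflozin (adjusted p = 0.751) and -0.45 ± 0.28 with caloric restriction (adjusted p = 0.999). The J-domain proteins Dnajb11 and Dnajc3, and the secreted stress factor Manf, had -0.26, -0.16 and -0.24 with canagliflozin and -0.27, -0.19 and -0.17 with caloric restriction. Dnajc10, a J-domain disulfide reductase, had -0.03 with canagliflozin and -0.10 with caloric restriction. Sil1, another BiP exchange factor, had -0.04 with canagliflozin and -0.02 with caloric restriction.

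**Figure D3:**
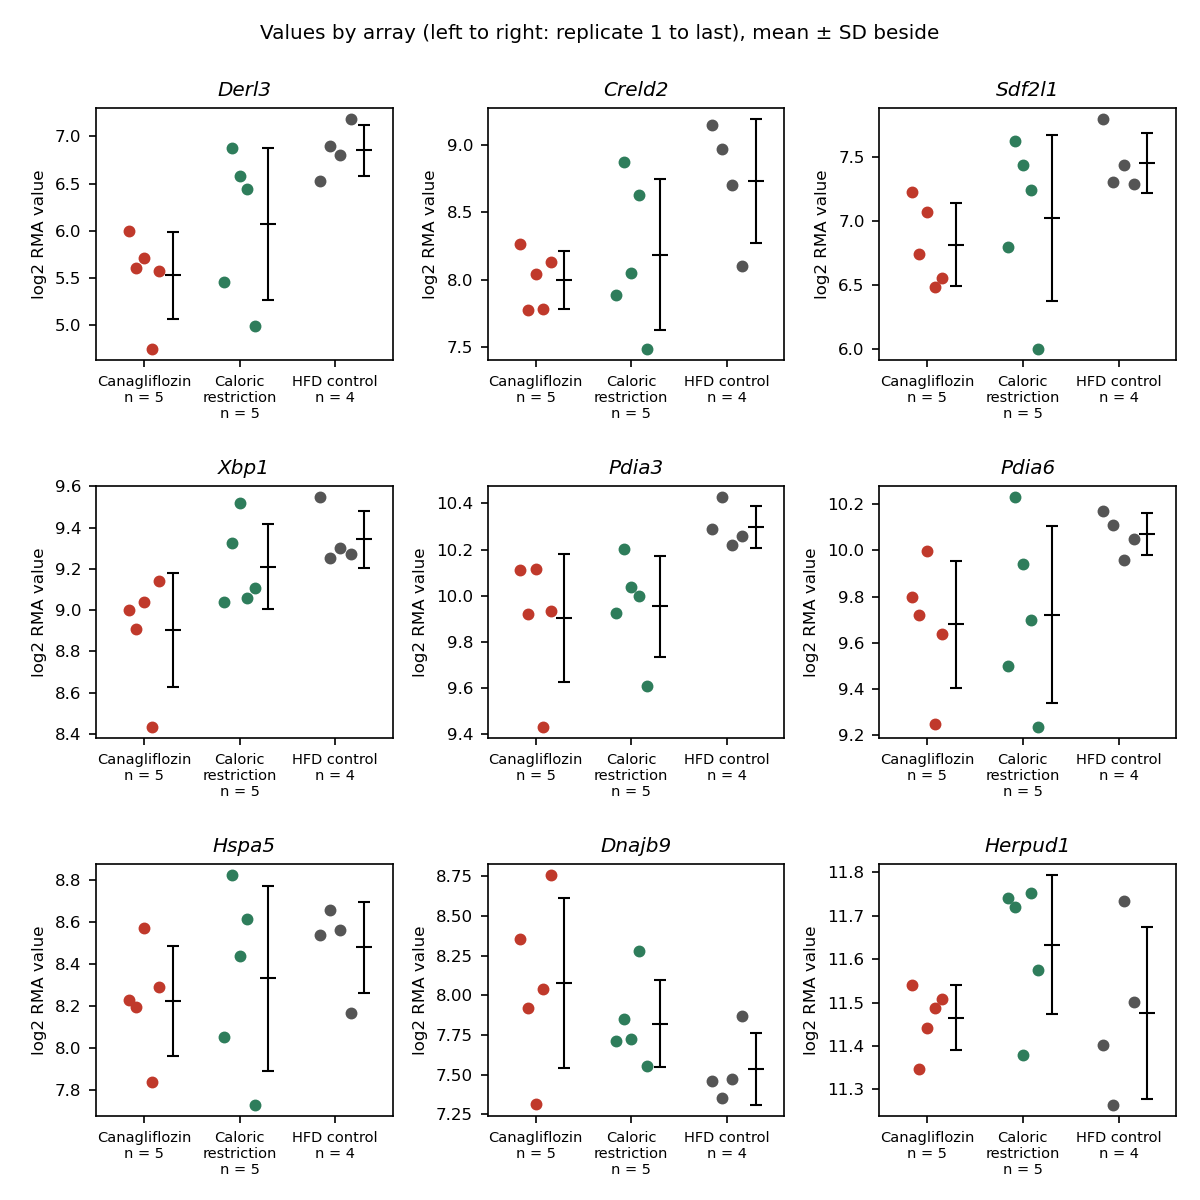
Log2 RMA values of 9 members in every array, canagliflozin (n = 5), caloric restriction (n = 5) and HFD control (n = 4) from left to right, with the group mean and SD beside the points and axes that do not start at 0. Canagliflozin points lie below all controls for Derl3, Sdf2l1, Xbp1 and Pdia3, while 4 of 5 lie above them for Dnajb9.

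All 4 members of the glycoprotein folding group had lower means with either treatment. The medians were -0.22 with canagliflozin and -0.20 with caloric restriction. Calr (calreticulin), a soluble lectin that holds monoglucosylated glycoproteins, had 10.97, 10.82, 10.92, 10.39 and 10.82 with canagliflozin, 10.70, 11.12, 10.93, 10.93 and 10.34 with caloric restriction, and 11.19, 11.09, 11.13 and 10.96 in HFD controls. Its groups overlapped, narrowly for canagliflozin but with caloric restriction replicate 2 among the controls. In either arm 4 of 5 arrays lay below every control. Its fold change was -0.31 ± 0.14 with canagliflozin (adjusted p = 0.758) and -0.29 ± 0.14 with caloric restriction (adjusted p = 0.999), the second being -0.17 without caloric restriction replicate 5. The membrane-bound counterpart Canx (calnexin) had -0.14 ± 0.09 with canagliflozin and -0.17 ± 0.09 with caloric restriction. Uggt1, the glucosyltransferase that tags misfolded glycoproteins for another round, had -0.29 ± 0.15 with canagliflozin and -0.23 ± 0.15 with caloric restriction. Ssr1, a translocon-associated subunit, had -0.11 ± 0.13 with canagliflozin and -0.06 ± 0.13 with caloric restriction, where its dimmer probe set read 0.01 with canagliflozin and -0.01 with caloric restriction.

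Among 9 measured disulfide isomerases and oxidases, 6 were lower in mean with canagliflozin (median -0.19) and 8 with caloric restriction (median -0.16). Pdia3, the isomerase ERp57 that works with calnexin and calreticulin, had 10.11, 9.92, 10.11, 9.43 and 9.93 with canagliflozin, 9.93, 10.20, 10.04, 10.00 and 9.61 with caloric restriction, and 10.29, 10.43, 10.22 and 10.26 in HFD controls. All 10 treated arrays lay below all 4 controls. Pdia3 was the only member for which this held, beside 0.0812% of all genes. Its fold change was -0.40 ± 0.14 (1.31-fold lower, adjusted p = 0.634) for canagliflozin and -0.34 ± 0.14 (1.27-fold lower, adjusted p = 0.999) for caloric restriction. With 1 array left out at a time, the first lay between -0.45 and -0.28 (without canagliflozin replicates 3 and 4). The second lay between -0.41 and -0.26 (without caloric restriction replicates 2 and 5).

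P4hb, protein disulfide isomerase itself, had 11.02, 11.08, 11.15, 10.79 and 10.99 with canagliflozin, 11.06, 11.04, 11.07, 11.03 and 10.98 with caloric restriction, and 11.21, 11.17, 11.23 and 11.15 in HFD controls. All caloric restriction arrays lay below all controls, as for 2 of 38 members (P4hb and Pdia3) beside 0.694% of all genes. The difference was small, at -0.16 ± 0.08 (adjusted p = 0.999), and for canagliflozin it was -0.19 ± 0.08 (adjusted p = 0.758).

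Pdia6, the isomerase P5, had 9.80, 9.72, 10.00, 9.25 and 9.64 with canagliflozin, 9.50, 10.23, 9.94, 9.70 and 9.24 with caloric restriction, and 10.17, 10.11, 9.96 and 10.05 in HFD controls. In each arm 4 of 5 arrays were below every control, and caloric restriction replicate 2 was above them. The fold change was -0.39 ± 0.17 with canagliflozin (adjusted p = 0.750) and -0.35 ± 0.17 with caloric restriction (adjusted p = 0.999), or -0.23 without replicate 5 of that arm. Pdia5, another isomerase, had 8.12, 8.82, 7.77, 8.42 and 8.46 with canagliflozin, 8.08, 8.19, 8.11, 8.07 and 7.83 with caloric restriction, and 8.27, 8.25, 7.72 and 8.13 in HFD controls. It was among the few members with a higher mean under canagliflozin, at 0.22 ± 0.17 (adjusted p = 0.867), and was -0.04 ± 0.17 under caloric restriction.

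Ero1a and Ero1b, the oxidases that recharge the isomerases, had unlike values, a difference that was not tested. Ero1b had -0.37 ± 0.19 with canagliflozin and -0.27 ± 0.19 with caloric restriction, whereas Ero1a had 0.08 ± 0.10 with canagliflozin and -0.01 ± 0.10 with caloric restriction, where its dimmer probe set read 0.14. The thioredoxin-like Txndc5 had -0.27, Erp44, which retains Ero1 proteins, -0.07, and the thioredoxin-domain protein Txndc11 0.13 with canagliflozin. With caloric restriction Txndc5 had -0.17, Erp44 -0.04 and Txndc11 0.06.

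The sensors and Xbp1 were divided in direction. Against HFD control, 2 of the 4 had a lower mean and 2 a higher mean in either arm. Xbp1 had 9.00, 8.91, 9.04, 8.44 and 9.14 with canagliflozin, 9.04, 9.33, 9.52, 9.06 and 9.11 with caloric restriction, and 9.55, 9.25, 9.30 and 9.27 in HFD controls. All 5 canagliflozin arrays were below every control, and so were 3 of the 5 caloric restriction arrays. The fold change was -0.44 ± 0.14 for canagliflozin (1.36-fold lower, adjusted p = 0.596) and -0.13 ± 0.14 for caloric restriction (adjusted p = 0.999). The first value was -0.50 without canagliflozin replicate 5 and -0.32 without canagliflozin replicate 4. The second value was -0.21 without caloric restriction replicate 3 and -0.07 without HFD control replicate 1.

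Ern1, the sensor upstream of Xbp1, had 8.11, 7.87, 7.92, 7.62 and 7.73 with canagliflozin, 7.75, 8.07, 8.31, 7.87 and 7.66 with caloric restriction, and 8.27, 7.69, 8.17 and 7.85 in HFD controls. Its fold changes were -0.14 ± 0.15 with canagliflozin and -0.06 ± 0.15 with caloric restriction, within the spread of arrays that overlapped throughout. Leaving out HFD control replicate 2 or 1 gave -0.24 or -0.05 for canagliflozin and -0.16 or 0.03 for caloric restriction. Atf6 had 8.37, 8.23, 8.40, 8.44 and 8.28 with canagliflozin, 8.14, 8.50, 8.35, 8.42 and 8.39 with caloric restriction, and 8.20, 8.06, 8.48 and 8.23 in HFD controls. Its fold change was 0.10 ± 0.10 with canagliflozin (adjusted p = 0.904) and 0.12 ± 0.10 with caloric restriction (adjusted p = 0.999), again with overlapping groups. Leaving out HFD control replicate 2 or 3 gave 0.04 or 0.18 for canagliflozin and 0.06 or 0.20 for caloric restriction. Eif2ak3 had 5.82, 5.59, 5.54, 5.26 and 5.37 with canagliflozin, 5.45, 5.52, 5.28, 5.78 and 5.37 with caloric restriction, and 5.35, 5.26, 5.80 and 5.46 in HFD controls. Its fold change was 0.05 ± 0.13 with canagliflozin and 0.02 ± 0.13 with caloric restriction, and either took the other sign when single arrays were left out.

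In ER-associated degradation, by which misfolded proteins are drawn out of the ER, ubiquitinated and destroyed, 9 of 10 members had a lower mean with canagliflozin (median -0.14) and 8 of 10 with caloric restriction (median -0.09). Derl3, a member of the derlin family of membrane proteins that help pull clients out of the ER, had 6.00, 5.61, 5.71, 4.76 and 5.58 with canagliflozin, 5.46, 6.88, 6.58, 6.45 and 4.99 with caloric restriction, and 6.53, 6.90, 6.81 and 7.18 in HFD controls. Every canagliflozin array was below every control, and caloric restriction was split, with replicates 1 and 5 at the canagliflozin level and replicates 2 and 3 among the controls. The fold change was -1.32 ± 0.32 for canagliflozin, with a 95% interval of -1.99 to -0.66. That is 2.50-fold lower and the lowest fold change of all 22180 genes in this comparison, yet its adjusted p was 0.559 (unadjusted p = 0.00059, rank 18 of all genes). Leaving out any single array kept it between -1.44 and -1.13. For caloric restriction it was -0.78 ± 0.32 (adjusted p = 0.999), between -0.98 without replicate 2 of that arm and -0.51 without replicate 5, and 3 genes had a lower value. The 7 measured plasma and B cell markers averaged 3.59 to 3.76 in canagliflozin arrays, 3.57 to 3.79 in caloric restriction arrays and 3.62 to 3.78 in HFD control arrays. Of 7 measured pancreatic acinar markers, 5 had means under 5. The 7 averaged 3.61 to 3.73 in canagliflozin arrays, 3.65 to 3.81 in caloric restriction arrays and 3.50 to 3.75 in HFD control arrays. With canagliflozin 4 were lower and with caloric restriction 2, beside 50.3% and 49.5% of all genes. At an unadjusted p under 0.05, 1 was higher with canagliflozin and 2 with caloric restriction, beside 3.21% and 2.06% of all genes. None was lower at that level or passed the adjusted threshold. Their part in the results was not tested.

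The other derlins had smaller fold changes. Derl2 had 6.75, 6.70, 6.93, 6.60 and 6.68 with canagliflozin, 7.05, 7.02, 6.92, 6.91 and 6.53 with caloric restriction, and 7.03, 7.02, 6.89 and 6.94 in HFD controls. The fold change was -0.24 ± 0.11 with canagliflozin (adjusted p = 0.751) and -0.09 ± 0.11 with caloric restriction, where the dimmer probe set read 0.08. Derl1 had -0.23 ± 0.10 with canagliflozin and -0.16 ± 0.10 with caloric restriction.

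Herpud1, a stress-induced membrane component of the degradation complex, had 11.54, 11.35, 11.44, 11.49 and 11.51 with canagliflozin, 11.74, 11.72, 11.38, 11.75 and 11.58 with caloric restriction, and 11.40, 11.27, 11.73 and 11.50 in HFD controls, with overlap in both comparisons. Its fold change was -0.01 ± 0.11 with canagliflozin, a sign that turned under 2 other scalings (0.01 with arrays centred on their medians and 0.00 with cyclic loess), and 0.16 ± 0.11 with caloric restriction (adjusted p = 0.999), between 0.09 and 0.24 without HFD control replicate 2 or 3. Sel1l, the scaffold of the HRD1 ligase complex, had 8.53, 8.50, 8.85, 8.65 and 8.72 with canagliflozin, 8.59, 9.02, 8.76, 9.09 and 8.67 with caloric restriction, and 8.79, 8.67, 9.03 and 8.85 in HFD controls. Its groups overlapped, with -0.19 ± 0.12 for canagliflozin and -0.01 ± 0.12 for caloric restriction. With canagliflozin the ligase Syvn1 (HRD1) had -0.13, the mannosidase-like Edem2 -0.16 and Edem1 -0.10, the lectin Os9 -0.03, and Selenos, a derlin partner, 0.09. With caloric restriction Syvn1 had -0.12, Edem2 -0.09, Edem1 0.01, Os9 -0.09 and Selenos -0.10. The dimmer probe set of Edem1 read 0.01 with canagliflozin and -0.06 with caloric restriction.

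Arrays of 1 group differed widely. The median shift of the 38 members against the HFD control mean was -0.13, -0.11, -0.07, -0.37 and -0.18 in canagliflozin replicates 1 to 5, and -0.25, 0.07, -0.13, -0.01 and -0.31 in those of caloric restriction, with 0.07, 0.02, -0.02 and -0.04 in the HFD controls. The control shifts are taken from the controls' own mean, which holds them near 0. Canagliflozin arrays were all below the controls, the nearest at -0.07 against -0.04, while caloric restriction spanned the widest range. The pooled SD of these medians within groups was 0.12, as large as the median fold change of the caloric restriction arm. Caloric restriction replicate 5 was the lowest of the 14 arrays for 14 members and canagliflozin replicate 4 for 10. Over all genes these arrays were lowest for 6.09% and 8.15%. HFD control replicate 1 was the highest array for 12 members, beside 7.22% of all genes. The median shift of all genes was between -0.0076 and 0.0041 in every array. No label names a batch, and what else sets those arrays apart was not tested.

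**Figure D4:**
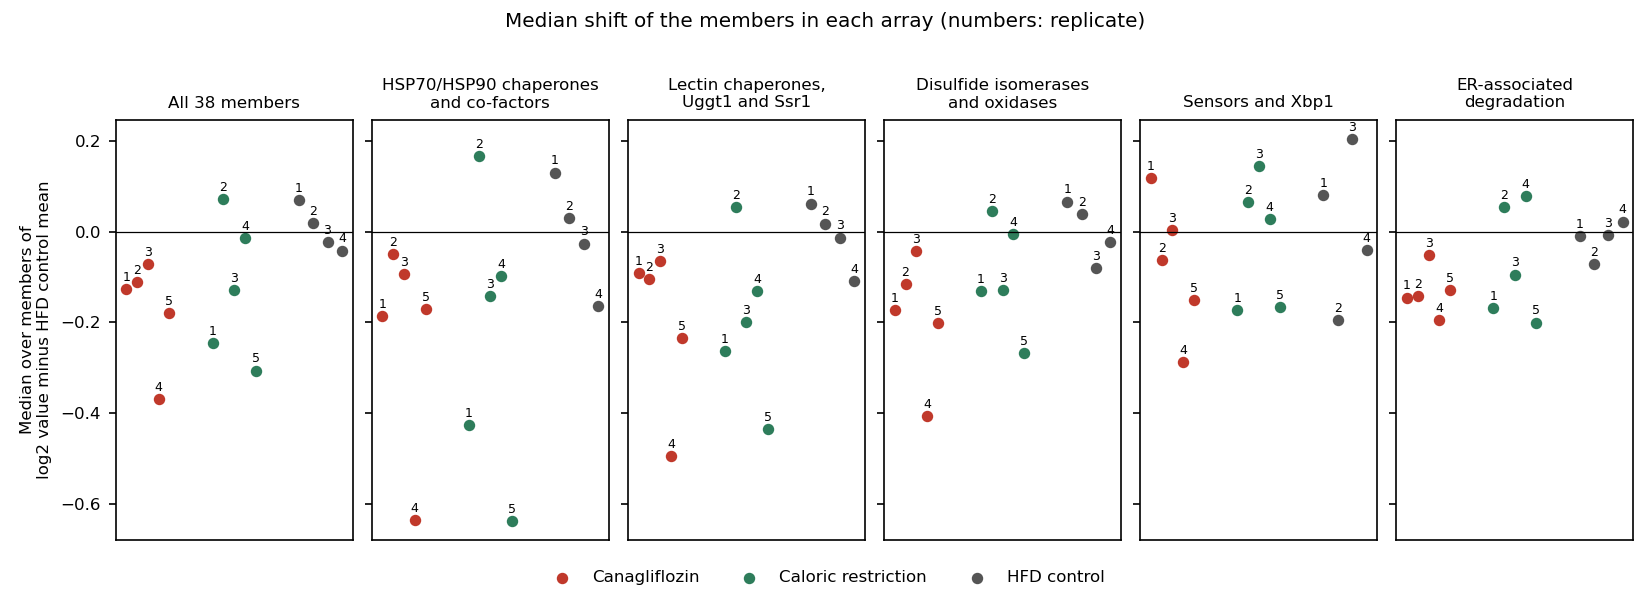
Median over members of the log2 value minus the HFD control mean, 1 point per array with its replicate number, for all 38 members and for each role group. Canagliflozin (red) is left of caloric restriction (green) and HFD control (grey). Chaperones and lectin chaperones reach lowest, at -0.64 and -0.49 in canagliflozin replicate 4 and -0.64 and -0.44 in caloric restriction replicate 5.

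Set against caloric restriction, the weight-matched arm, canagliflozin gave lower means for 26 of 38 members, beside 51% of all genes, with a median of -0.05. No member passed the adjusted threshold, which 1 gene did (0.00451% of genes). At an unadjusted p under 0.05, 1 member was lower and 0 higher, beside 2.98% and 3.07% of genes. That member was Xbp1, at -0.31 ± 0.13 (1.24-fold lower, 95% interval -0.58 to -0.03, adjusted p = 0.807). Its value was -0.19 without canagliflozin replicate 4 and -0.36 without canagliflozin replicate 5. The count of 1 lower member became 0 without canagliflozin replicate 4 or caloric restriction replicate 2. It was 2 without caloric restriction replicate 1 or canagliflozin replicate 3, and 4 when caloric restriction replicate 5 was left out. Without canagliflozin replicate 3, 4 members were under that p in all, higher ones included. Next came Derl3 at -0.54 ± 0.30, Herpud1 at -0.17 ± 0.10, Pdia5 at 0.26 ± 0.16, Sel1l at -0.18 ± 0.11 and Derl2 at -0.15 ± 0.10, with adjusted p of 0.828 to 0.863. With 1 array left out at a time, Derl3 lay between -0.81 and -0.34 (without caloric restriction replicates 5 and 2), Pdia5 between 0.14 and 0.40 (without canagliflozin replicates 2 and 3), Sel1l between -0.24 and -0.11 (without caloric restriction replicates 1 and 4) and Derl2 between -0.24 and -0.11 (without caloric restriction replicates 5 and 1). The direction of the set depended on single arrays: with caloric restriction replicate 2 left out the median was 0.02 and 14 members were lower, and with canagliflozin replicate 4 left out they were 0.01 and 17. Among the chaperones and co-factors the differences lay between -0.21 (Sdf2l1) and 0.26 (Dnajb9). They were -0.11 ± 0.18 for Hspa5 and 0.08 ± 0.14 for Hsp90b1, and the lectin Calr had -0.02 ± 0.13. Their intervals of -0.48 to 0.27, -0.23 to 0.38 and -0.31 to 0.26 leave room for differences in either direction. All 7 macrophage markers had a higher mean with canagliflozin than with caloric restriction (median 0.20), and their part in these differences was not tested. The sensors had -0.08 ± 0.14 for Ern1, -0.02 ± 0.09 for Atf6 and 0.03 ± 0.13 for Eif2ak3.

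The mean of the canagliflozin and caloric restriction arms was also compared with HFD control. Lower means were found for 31 of 38 members, beside 49.7% of all genes, with a median of -0.16. None passed the adjusted threshold (0% of all genes did), and 10 members were lower and 1 higher at an unadjusted p under 0.05, beside 2.48% and 2.57% of genes. Leaving out HFD control replicate 1 or 2 gave 3 or 6 lower members, and leaving out caloric restriction replicate 2 gave 15. The smallest p values belonged to Derl3 (-1.05 ± 0.28, again the lowest of all 22180 genes), Pdia3 (-0.37 ± 0.12), Creld2 (-0.64 ± 0.21), Pdia6 (-0.37 ± 0.15), Sdf2l1 (-0.54 ± 0.22) and Xbp1 (-0.29 ± 0.12), each with an adjusted p of 0.977. Hspa5 had -0.20 ± 0.17, Hsp90b1 -0.24 ± 0.14, Calr -0.30 ± 0.13 and Herpud1 0.07 ± 0.09. Ern1 had -0.10 ± 0.13, Atf6 0.11 ± 0.09 and Eif2ak3 0.03 ± 0.12.

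Members with and without the ERSE can be set side by side, whether or not their windows are printed above. Those without have no exact match in the window searched, and they include Herpud1 and Dnajb11, which have only ERSE-II. All 10 members with an ERSE had a lower mean with canagliflozin (median -0.28) and with caloric restriction (median -0.28), beside 50.3% and 49.5% of all genes. Among the 23 measured members with a promoter in the table and no ERSE, 17 were lower with canagliflozin (median -0.11) and 18 with caloric restriction (median -0.09). The 19 other measured genes with the element in the same window had a median of 0.06 with canagliflozin, where 3 were lower. With caloric restriction their median was 0.10, and 7 were lower. They include families of similar genes (Esp15, Esp16, Esp18 and Esp36, and Xlr3a, Xlr3b and Xlr3c) and the olfactory receptor Olfr59. Their levels in liver were not compared with those of the members. Between canagliflozin and caloric restriction, 7 of the 10 members with the element were lower, beside 51% of all genes, with a median of -0.03. The difference between these classes was not tested.

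**Figure D5:**
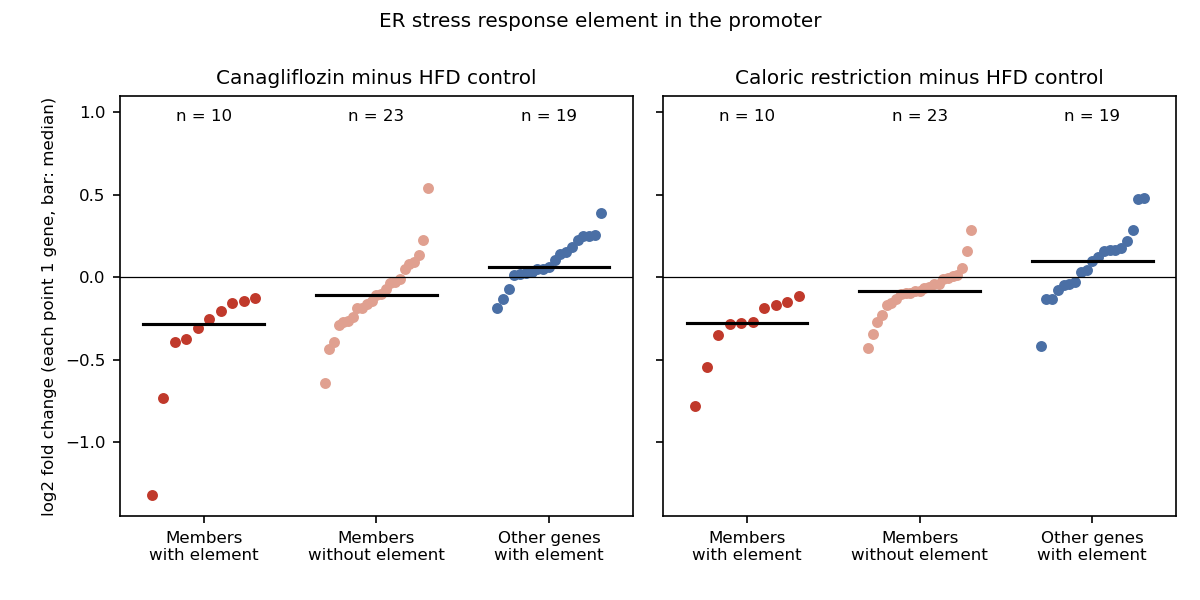
Log2 fold change against HFD control of 10 members with the ER stress response element, 23 members with a promoter entry and no exact match to the element, and 19 other genes with it. Each point is 1 gene and bars are medians. All points of the first class lie below 0 in both panels, with medians of -0.28 and -0.28.

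Other secretory pathway and stress gene lists were read from the same fits, and none of their genes passed the adjusted threshold. The counts below stand beside 50.3% of all genes lower with canagliflozin and 49.5% with caloric restriction, and several lie near those shares. All 10 oligosaccharyltransferase genes, which attach N-glycans, had lower means with canagliflozin (median -0.13) and 8 with caloric restriction (median -0.06). Of 15 measured translocon and signal peptidase genes, which bring proteins into the ER, 12 were lower with canagliflozin (median -0.10) and 12 with caloric restriction (median -0.06). Of 12 genes of the COPII export coat, 8 were lower with canagliflozin (median -0.04) and 9 with caloric restriction (median -0.06). On the cytosolic side of ER-associated degradation, 7 of 10 were lower with canagliflozin (median -0.02) and 6 with caloric restriction (median -0.03). Among membrane-bound factors and their proteases, 4 of 6 were lower with canagliflozin (median -0.03) and 2 with caloric restriction (median 0.07). Genes of the PERK arm and integrated stress response were lower in 4 of 12 with canagliflozin (median 0.07) and 3 of 12 with caloric restriction (median 0.06). Ddit4, an inhibitor of mTORC1, had the largest value of that list, at 0.91 ± 0.29 with canagliflozin and 0.82 ± 0.29 with caloric restriction, and Ddit3 (CHOP) had -0.14 ± 0.10 with canagliflozin. Of 10 measured heat shock genes, 7 were lower with canagliflozin (median -0.12) and 7 with caloric restriction (median -0.14). That list is mainly cytosolic but includes the mitochondrial chaperonin genes Hspd1 and Hspe1.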

How the data were processed

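Liver RNA from 14 samples was measured on 1 array each. The deposited table holds a log2 value for each probe set. The submitters' processing notes name RMA and the Affymetrix Expression Console as the authors' tools, without a version. Array medians lay between 4.07 and 4.13. RMA puts all arrays on a common distribution, so a change shared by most genes would not show.

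Of 41345 probe sets, 23521 named 1 gene, 1814 several and 16010 had no entry. Symbols were checked against a RefSeq table (23328 matched). The probe set with the highest mean stood for each of 22180 genes. A limma model (version 3.58.1, R 4.3.3) of the 3 group means used all 14 arrays, with moderated variances and Benjamini-Hochberg adjustment over all genes, and the script was tested on simulated data. Values after ± are standard errors of that fit.

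Values by array are given for the 6 members with the smallest p in each comparison and for Hspa5, Hsp90b1, Calr, Ern1, Atf6, Eif2ak3, Xbp1 and Herpud1. The members, the other gene lists and this rule were chosen with earlier results of these data known. Alternatives were the fit on the compared arrays alone, a dim-gene filter at a mean log2 value of 5, median centring, cyclic loess, a trended robust variance, array weights, a replicate block, array order, averaged probe sets of a gene, an adjusted p under 0.1, and leaving out each array. Promoter sequences are from RefSeq. The table has no entry for 5 members: Sil1, Derl1, Atf6, Hyou1 and Manf. Precision is limited by the number of arrays.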

Additional observations from a re-analysis of the deposited data

Results flagged for a closer look

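Of 114 groups of arrays (38 members in 3 arms), 9 held an array whose gap to its nearest neighbour took up more of the group's range than Dixon's 95% limit allows. Chance gives about 1 in 20 such groups, and groups of related genes are not independent. Canagliflozin replicate 4 stood apart below the rest of its group for 5 members: Calr (10.39, others 10.82 to 10.97), Canx (10.49, others 10.75 to 10.80), Dnajb11 (7.26, others 7.94 to 8.08), Pdia3 (9.43, others 9.92 to 10.11) and Selenos (7.37, others 7.76 to 7.86). Derl2 was low in caloric restriction replicate 5 (6.53, others 6.91 to 7.05). Edem1 was high in canagliflozin replicate 3 (9.59, others 9.07 to 9.14) and in HFD control replicate 4 (9.40, others 9.25 to 9.27). Txndc11 was low in HFD control replicate 2 (6.38, others 6.57 to 6.60).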

How the results depend on the processing

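No member passed the adjusted threshold of 0.05 or 0.1 under any alternative. The smallest adjusted p was 0.221 for canagliflozin and 0.976 for caloric restriction against HFD control, 0.543 between the arms and 0.750 for both arms pooled. Over all settings 34, 24, 18 and 35 of 38 members kept their sign, in that order of comparisons. Leaving out 1 array at a time, the median of the members was -0.21 to -0.12, -0.16 to -0.09, -0.1296 to 0.0181 and -0.18 to -0.12, and 30 to 32, 23 to 35, 14 to 29 and 30 to 32 members were lower. The median correlation of deviations was 0.05 over 13 same-numbered pairs (-0.09 to 0.20) and -0.02 over 52 others (-0.21 to 0.18). These low values cannot decide whether same-numbered arrays were handled together. With a replicate block the medians were -0.16, -0.11, -0.05 and -0.13, no member was called, and the unadjusted p was under 0.05 for 7, 1, 1 and 6 members.

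Signs near 0 turned. Herpud1 (canagliflozin minus HFD control) was 0.0092 with median centring and 0.0047 with cyclic loess, and Atf6 (between the arms) 0.0039 with array order as covariate. Among the members given by array, ranges over left-out arrays that crossed 0 were, for canagliflozin minus HFD control, -0.0259 to 0.1605 (Eif2ak3) and -0.0811 to 0.0752 (Herpud1). For caloric restriction minus HFD control they were -0.0596 to 0.1261 (Eif2ak3), -0.1641 to 0.0271 (Ern1) and -0.2703 to 0.0021 (Hspa5). Between the arms they were -0.0707 to 0.0182 (Atf6), -0.1383 to 0.0759 (Calr), -0.0419 to 0.1100 (Eif2ak3), -0.1474 to 0.0134 (Ern1), -0.0135 to 0.2116 (Hsp90b1) and -0.2580 to 0.0143 (Hspa5). For both arms pooled Eif2ak3 gave -0.0354 to 0.1433. The cause was not tested. Genes called over the whole table numbered 0 to 2 except without canagliflozin replicate 3, where 12 were called for canagliflozin against HFD control and 16 between the arms, none a member.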
